A study of Mus musculus with 30 samples.

Results

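The genes described here encode the polymerases that copy the nuclear genome and the primase that starts each new strand. The 10 genes were chosen by name and not by a rule on their measured values, though earlier results of these data were known. They are subunits of the polymerase alpha-primase complex (Pola1, Pola2, Prim1, Prim2), of polymerase delta (Pold1, Pold2, Pold3) and of polymerase epsilon (Pole, Pole2, Pole3). They are 10 of the 46078 genes in the count table. Polymerase alpha-primase lays down a short RNA-DNA primer at the origin and at the start of every Okazaki fragment. Polymerase epsilon then extends the leading strand and polymerase delta the lagging strand. Both proofread, and both act together with the sliding clamp PCNA, while the MCM helicase opens the template ahead of them.

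The study sorted proliferating C2C12 cells, an established mouse myoblast line, by the phase of the cell cycle. All cells were grown in DMEM with 20% fetal bovine serum, and the labels name no genetic change and no drug. After trypsin treatment they were stained for 15 min with a Hoechst dye, which binds DNA, and divided on a cell sorter into G1, S and G2/M cells. RNA of each phase was sequenced as paired reads of 101 cycles, and each phase has 2 columns of counts. C2C12 is an immortal line derived as a clone, and the labels do not give the gates or the purity of the sorted cells.

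Each column held from 16109055 to 18103769 fragments on genes. The 2 columns of a phase differed by about as much as counting alone gives, slightly more in G2/M, with a chi-square per degree of freedom of 1.00 in G1, against 1.03 in S and 1.15 in G2/M. Their titles number them as replicates, but nothing says that they came from separate cultures. They were therefore summed to 1 library per phase, and a difference between phases has no replicate to check it. All intervals below are 95% intervals of counting error only. Only the S titles name a lot, and in every comparison with S the lot and the phase cannot be told apart. The myoblast genes Cdh15, Itga7 and Des lay between 85.4 and 311.5 CPM (fragments of a gene per 1000000 on genes, after scaling of the libraries) in every phase, and Myf5 between 66.0 and 127.8 CPM. Myod1 lay at 5.73 to 6.64 CPM, and Pax7 had no fragment in G1 or S but 119 fragments, or 3.28 CPM, in G2/M. The 7 markers of differentiated muscle summed to 9.23 CPM in G1, against 1.93 in S and 11.2 in G2/M, and 4 of the 5 markers of other lineages had no fragment in any phase.

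The expression of the 10 genes did not move as a block through the cycle. Relative to G1, the S library had higher levels of Pola1, Prim1, Prim2, Pold2, Pole and Pole3 and lower levels of Pola2, Pold1, Pold3 and Pole2. The largest differences were in the accessory subunits: Pold3 was 2.1-fold lower in S than in G1, and Pold2 exceeded its G1 level by 2.34-fold in G2/M. Pole2 exceeded its S level by 1.98-fold in G2/M. Members of the same complex differed in opposite directions, so that the ratio between the messages of 2 subunits shifted by up to 4.28-fold. In bulk RNA of this kind, fewer cells with a message and less message per cell cannot be told apart, and CPM gives a share of the RNA, not an amount per cell.

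**Figure D1:**
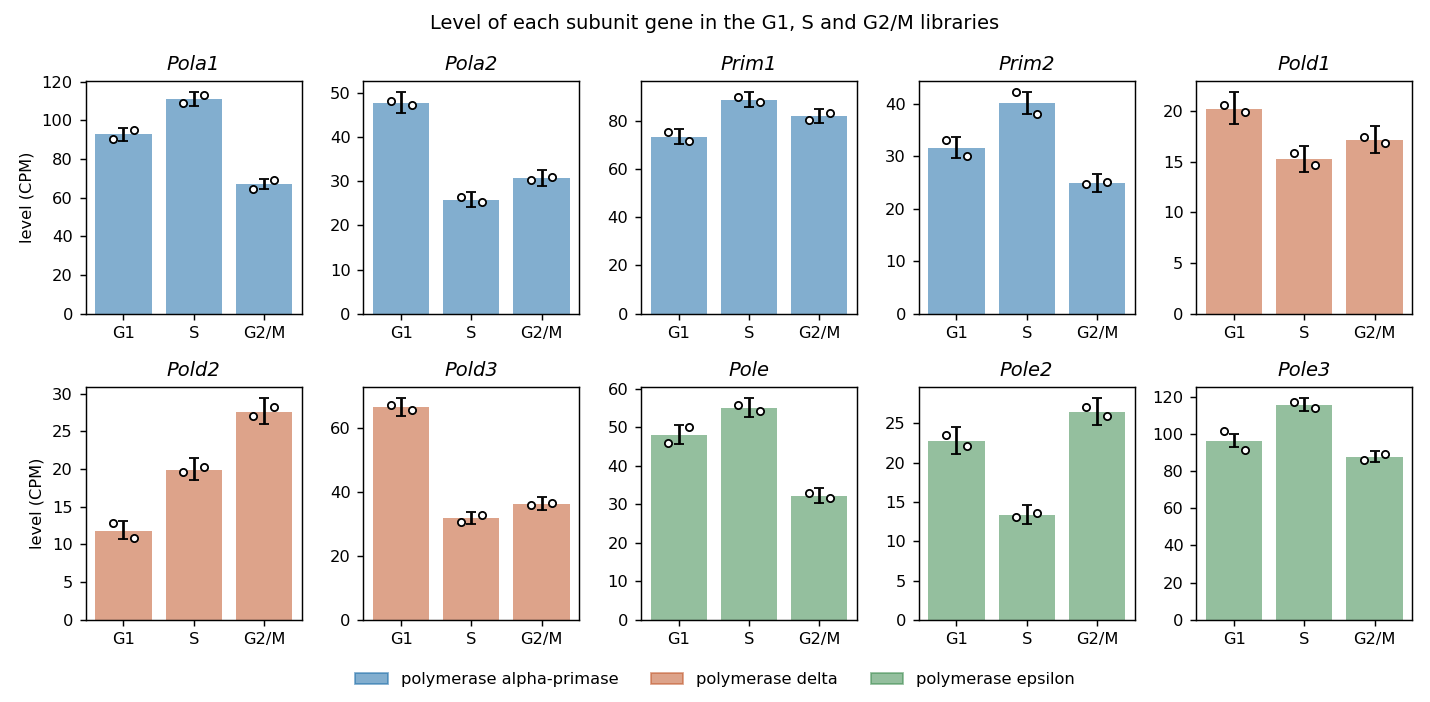
Level of each of the 10 genes (vertical axis, CPM after TMM scaling, from 0) in G1, S and G2/M (horizontal axis), 1 panel per gene. Points are the 2 columns of a phase, and bars the summed library with its 95% Poisson interval. Pola1 and Pole are highest in S and lowest in G2/M, Pold2 climbs from 11.8 CPM in G1 to 27.6 CPM in G2/M, and Pold3 is highest in G1 at 66.5 CPM.

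Pola1 encodes the catalytic subunit of polymerase alpha and lies on the minus strand of chromosome X, from 93304767 to 93632155 (GRCm38). In G1 its columns stood at 90.1 and 95.2 CPM, in S at 109.0 and 113.0, and in G2/M at 64.6 and 69.2. The S columns were the highest and the G2/M columns the lowest. The log2 ratio of G2/M over S was -0.73 (95% interval -0.80 to -0.66), and that of S over G1 was 0.26 (0.19 to 0.33).

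Pola2 encodes the B subunit, which tethers the catalytic subunit within the complex, and lies on the minus strand of chromosome 19 from 5940543 to 5964206. The G1 columns stood at 48.2 and 47.2 CPM, the S columns at 26.3 and 25.3, and the G2/M columns at 30.4 and 30.9. Here G1 was the highest phase and S the lowest, the reverse of the order of G1 and S in Pola1. The log2 ratio of S over G1 was -0.89 (-1.0 to -0.77), or 1.85-fold lower in S.

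Because Pola1 and Pola2 belong to one complex and differed in their order of phases, the 150 bases before their annotated starts are shown, with those of Pole2, whose pattern differed from both. They are from RefSeq on GRCm38.p6, written 5′ to 3′ along the gene, at chrX:93632156-93632305, chr19:5964207-5964356 and chr12:69228191-69228340, all on the minus strand. Capitals mark matches on either strand to an E2F motif, to CCAAT or to GGGCGG.
Pola1: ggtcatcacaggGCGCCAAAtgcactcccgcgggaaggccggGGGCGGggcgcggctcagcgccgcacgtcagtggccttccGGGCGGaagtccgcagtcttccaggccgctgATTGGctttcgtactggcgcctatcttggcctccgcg
Pola2: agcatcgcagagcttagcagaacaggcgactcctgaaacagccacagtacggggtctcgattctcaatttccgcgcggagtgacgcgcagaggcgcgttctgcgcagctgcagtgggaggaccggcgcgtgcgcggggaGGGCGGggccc
Pole2: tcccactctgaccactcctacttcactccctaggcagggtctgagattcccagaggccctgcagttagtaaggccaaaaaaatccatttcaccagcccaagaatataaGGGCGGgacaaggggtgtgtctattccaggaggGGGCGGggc

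RefSeq promoter sequence, from 250 bases before to 50 after the start, was matched for 8 of the 10 genes; Prim2 and Pole are named only. E2F proteins switch on many genes at the entry to S phase. The E2F motif was searched as TTTCCCGC, TTTGGCGC, TTTCGCGC or TTTGCCGC on both strands, and 744 of 32851 promoters of the same length (2.26%) held it. The first-listed promoters of 4 of the 8 genes did: Pola1, Pold1, Pold3 and Pole2. The Pola1 match spans bases -138 to -131 from the start, and the other 3 matches lie after it. These stretches show the matches in capitals, with their surroundings, at chr7:44548766-44548786, chr7:100121468-100121495 and chr12:69228163-69228190 on the minus strand.
Pold1: gtatcttgtgGCGGGAAAagc
Pold3: agcgaagctgTTTCCCGCcggcgggagc
Pole2: gtcggcggtgGCGCCAAAtcgcgaacat

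The 4 genes with an E2F match did not share an order of phases: Pola1 was highest in S, Pold1 and Pold3 in G1, and Pole2 in G2/M. CCAAT, the letters bound by NF-Y, was found on either strand in 3 of the 8 promoters (Pola1, Prim1, Pold2) and in 37.4% of all promoters. GGGCGG, a GC box, was found in 6 of 8 and in 35.7% of all. TTTGAA, the core of the CHR element, was in none of the 8 first-listed promoters and in 17.9% of all, and a second listed start of Pold2 held it. None of the motif letters overlapped another motif's, and a match is a description of the letters, not of a bound site.

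The primase genes were each highest in S. Prim1, the catalytic primase subunit, lies on the plus strand of chromosome 10 from 128015168 to 128030037. Column values in CPM were 75.4 and 71.4 (G1), 89.7 and 87.8 (S) and 80.4 and 83.4 (G2/M). The S library exceeded G1 by 1.21-fold and G2/M by 1.08-fold. Prim2, the large primase subunit that carries the iron-sulfur domain, lies on the minus strand of chromosome 1 from 33453810 to 33669795. In G1 its columns stood at 33.1 and 30.2 CPM, in S at 42.2 and 38.1, and in G2/M at 24.7 and 25. The step from S to G2/M was the larger, with a log2 ratio of -0.69 (-0.81 to -0.57).

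Polymerase delta showed the widest divergence in the comparisons with G1, and polymerase epsilon in G2/M over S. Pold1, the catalytic and proofreading subunit, lies on the minus strand of chromosome 7 from 44532746 to 44548849. The G1 columns stood at 20.6 and 19.9 CPM, the S columns at 15.9 and 14.6, and the G2/M columns at 17.5 and 16.9. The S library was 1.33-fold lower than G1, and the log2 ratio of G2/M over S was 0.17 (0.00 to 0.34), with a lower bound only just above 0.

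Pold2 is the accessory B subunit that joins the catalytic subunit to the rest of polymerase delta, on the minus strand of chromosome 11 from 5872180 to 5878292. Column values in CPM were 12.8 and 10.9 (G1), 19.6 and 20.2 (S) and 27 and 28.2 (G2/M). Each later phase was higher than the one before. The log2 ratio of G2/M over G1 was 1.22 (1.05 to 1.40). This gene had the fewest fragments of the 10 in G1, 204 and 175 in its 2 columns, whose CPM differed by 17.9%.

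Pold3, the subunit that carries a PCNA-binding motif and also serves in break-induced replication, went the other way. It lies on the minus strand of chromosome 7 from 100082111 to 100121565. In G1 its columns stood at 67.2 and 65.8 CPM, in S at 30.6 and 32.9, and in G2/M at 35.9 and 36.7. G1 stood alone at the top, and the log2 ratio of S over G1 was -1.07 (-1.17 to -0.96). The remaining small subunit, Pold4, was at 6.18, 6.29 and 11.1 CPM in the 3 phases and reached 10 CPM only in G2/M.

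Pole, the catalytic subunit of the leading-strand polymerase, lies on the plus strand of chromosome 5 from 110286306 to 110337474. The G1 columns stood at 46.0 and 50.1 CPM, the S columns at 55.8 and 54.4, and the G2/M columns at 32.9 and 31.6. As with Pola1, S was the highest phase and G2/M the lowest, with a log2 ratio of G2/M over S of -0.77 (-0.88 to -0.67). Antisense Gm15792 overlaps 78 of its exon bases, or 0.699%, and the other 9 genes share no exon base with another gene.

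Pole2, the B subunit of polymerase epsilon, lies on the minus strand of chromosome 12 from 69201779 to 69228190. Column values in CPM were 23.5 and 22.1 (G1), 13.1 and 13.6 (S) and 27 and 25.9 (G2/M). S was the low phase, where Pole was at its highest. The log2 ratio was -0.77 (-0.94 to -0.60) for S over G1 and 0.98 (0.82 to 1.14) for G2/M over S.

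Pole3, a small histone-fold subunit that also belongs to chromatin-remodelling complexes, lies on the minus strand of chromosome 4 from 62522649 to 62525068. In G1 its columns stood at 101.2 and 91.1 CPM, in S at 117.1 and 113.9, and in G2/M at 85.9 and 89.3. S was the highest, and G1 and G2/M lay close together, with a log2 ratio of G2/M over G1 of -0.13 (-0.21 to -0.06). Its histone-fold partner Pole4 was at 73.3, 72.3 and 42.3 CPM in G1, S and G2/M, 1.71-fold lower in G2/M than in S.

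Levels of different genes were compared per kilobase of exon. Pole3 was the highest of the 10 in every phase, at 47.1, 56.6 and 43.0 CPM per kb, and Prim1 the second, at 19.0, 22.9 and 21.2 CPM per kb. The lowest was Pold1 in G1 (4.17 CPM per kb) and S (3.14) and Pole in G2/M (2.89). The highest level exceeded the lowest by 11.3-fold in G1, against 18-fold in S and 14.9-fold in G2/M. The catalytic subunits of polymerases delta and epsilon thus stood at the bottom of the order, and that of polymerase alpha in the middle, at rank 6, 3 and 7. Neighbours whose intervals overlapped were Pola2 with Pold3, Pold2 with Prim2, and Pole with Pold1 in G1, Pola2 with Pole2 and Pole2 with Pold3 in S, and Pole2 with Pold2 in G2/M.

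**Figure D2:**
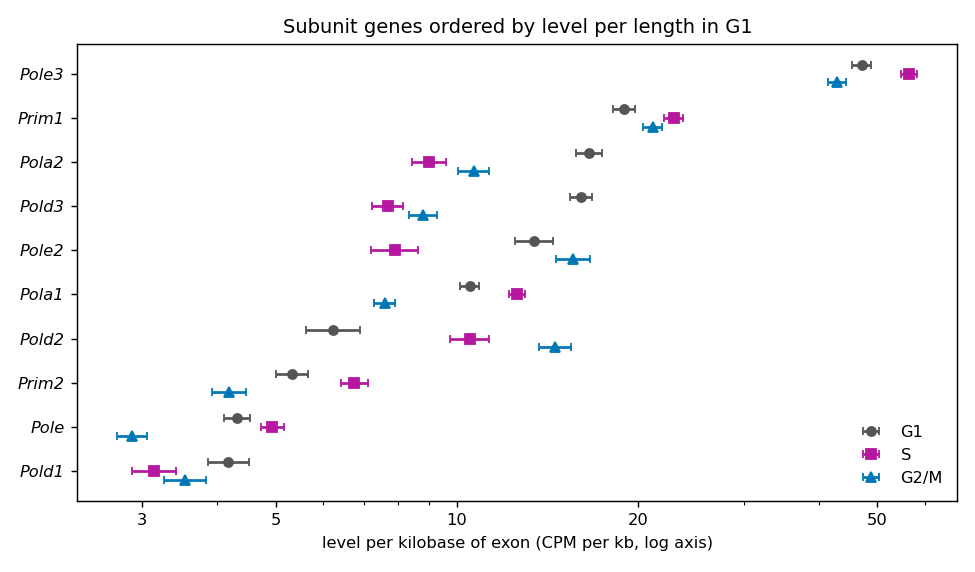
Level per kilobase of exon (horizontal log axis, CPM per kb) of the 10 genes (vertical axis, ordered by G1) in G1, S and G2/M, with 95% Poisson intervals. Pole3 is far to the right in every phase, at 43.0 to 56.6 CPM per kb, and Pold2 moves from 6.24 CPM per kb in G1 to 14.6 in G2/M.

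Counted by direction, 6 of the 10 genes were higher in S than in G1, against 49.7% of all genes that reached 10 CPM in 1 of the 2 phases. From S to G2/M 5 of 10 were higher, against 50.2%, and 3 of 10 were higher in G2/M than in G1, against 49.6%. The median log2 ratio over the 10 genes was 0.23 for S over G1, 0.03 for G2/M over S and -0.29 for G2/M over G1, where the median over all genes lay between -0.01 and 0.00. The counting interval excluded 0 for all 10 genes in each comparison, as it did for 88.3%, 86.8% and 89% of all genes, so at this depth such an interval sets few genes apart. The 3 comparisons share libraries and are not independent of each other.

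**Figure D3:**
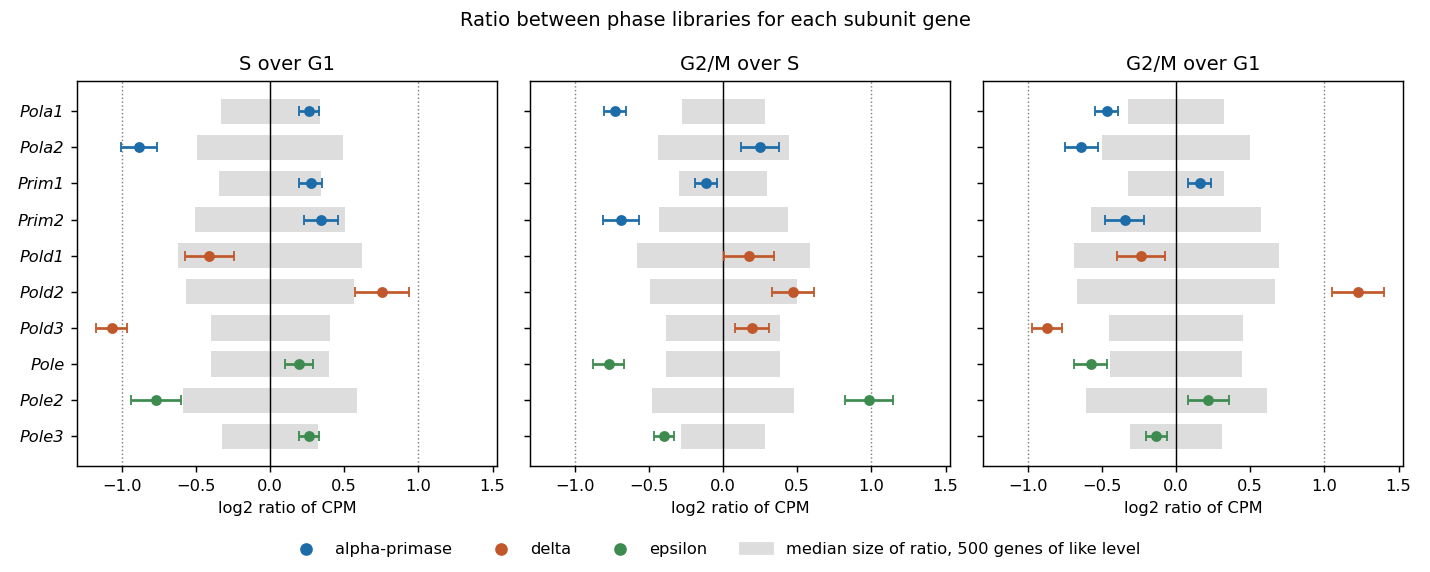
Log2 ratio of CPM for each of the 10 genes in S over G1, G2/M over S and G2/M over G1, with 95% binomial intervals of counting error. In the comparisons with G1 the polymerase delta genes spread widest, with Pold3 at -1.07 in S over G1 and Pold2 at 1.22 in G2/M over G1. In G2/M over S the polymerase epsilon genes did, from Pole at -0.77 to Pole2 at 0.98.

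At a threshold of 2-fold, no gene of the 10 was higher in S than in G1 (8.65% of all genes were), and 1 was lower, Pold3 (8.55% of all genes). Between S and G2/M none was 2-fold higher (7.07%) or lower (6.65%), with Pole2 at 1.98-fold just outside. In G2/M over G1, 1 gene was 2-fold higher, Pold2 (10%), and none was lower (9.83%). Each of these counts is near the share of all genes. At 1.5-fold, 1 gene was higher (18.5% of all genes) and 3 lower (18.3%) in S over G1, 1 higher (16%) and 3 lower (15.6%) in G2/M over S, and 1 higher (20.1%) and 2 lower (19.7%) in G2/M over G1. Among genes of the members' own range of mean level, 17.6 to 99.8 CPM, 14.3%, 10.3% and 16.7% passed 2-fold in either direction in the 3 comparisons.

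The size of a difference was also read against the 500 genes of nearest mean level. Pold3 had a larger difference between S and G1 than 91.2% of these, and Pola1 a larger one between G2/M and S than 92.2%. Pole2 exceeded 83.4% and Pole 81.6% in G2/M over S, and Pold3 80.4% and Pold2 78.4% in G2/M over G1. At the other end, Pold1 exceeded 14.8% in G2/M over G1 and 16.2% in G2/M over S. Percentiles were taken instead over genes in fixed bands of mean level, of 15 to 20, 20 to 30, 30 to 50 and 50 to 100 CPM. All 30 ratios lay between the 5th and 95th percentile of their band, and 16 lay between the quartiles. The departures named here are thus within the usual spread of those bands. Pola1 in G2/M over S, at a mean of 90.2 CPM, depended on the band. The 5th percentile was -0.80 in its own band and -0.61 in that of 100 to 200 CPM.

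**Figure D4:**
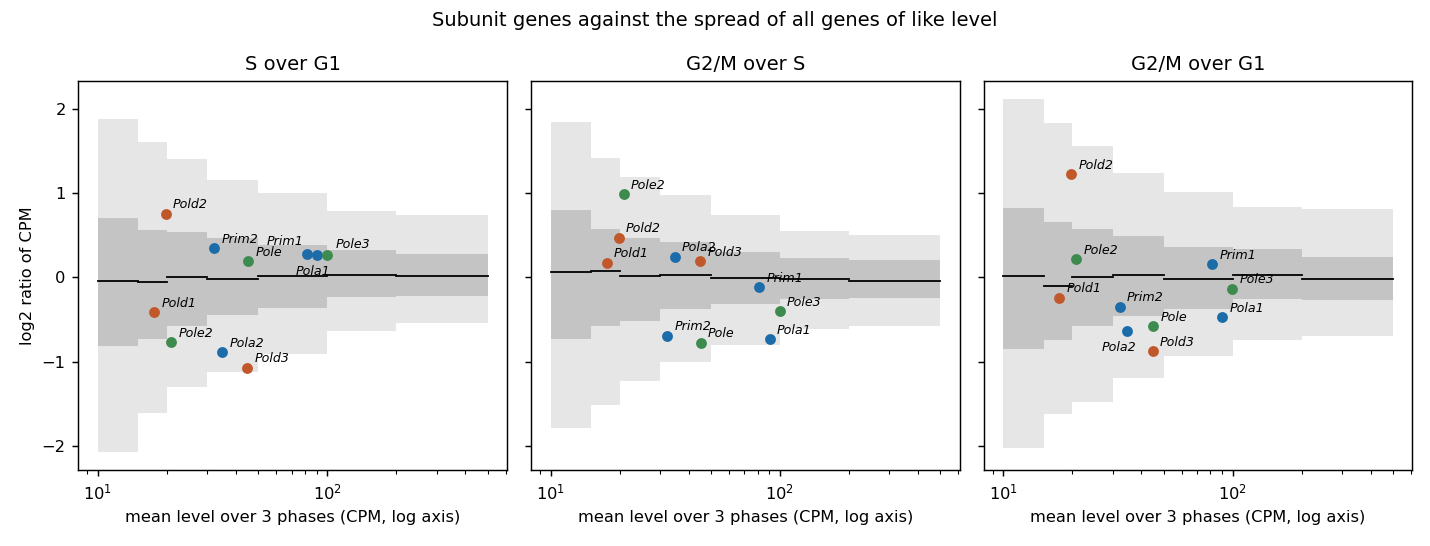
Log2 ratio (vertical axis) of the 10 genes against their mean level over the phases (horizontal log axis, CPM), 1 panel per comparison. Light and dark grey show the 5th to 95th and 25th to 75th percentiles of all genes in fixed bands of mean level, and the black line their median. All 30 points lie inside the light band, with Pold3 and Pola1 close to its lower edge.

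Within a complex, the ratio of fragments per exon base between 2 subunit genes of 1 library does not depend on how libraries are scaled. In polymerase alpha-primase, Pola1 over Pola2 was 0.633 in G1, against 1.40 in S and 0.711 in G2/M. It was 2.21-fold higher in S than in G1, a log2 change of 1.15 (1.01 to 1.28). By contrast, Pola1 over Prim2 was 1.97, 1.86 and 1.81, and the intervals of all 3 of its changes included 0, the widest of them from -0.27 to 0.03.

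In polymerase delta, Pold2 over Pold3 was 0.388 in G1, against 1.37 in S and 1.66 in G2/M. This turned the order of the 2 messages per exon base around. In CPM with no length, Pold2 lay below Pold3 in every phase. The ratio of Pold2 to Pold3 changed by 4.28-fold from G1 to G2/M, or 2.1 on the log2 scale (1.90 to 2.29). Pold1 over Pold2 was 0.669, 0.299 and 0.243, while Pold1 over Pold3 was 0.259, 0.409 and 0.402. The catalytic message was thus 2.76-fold lower relative to Pold2 in G2/M than in G1, and 1.55-fold higher relative to Pold3.

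In polymerase epsilon, Pole over Pole2 was 0.321 in G1, against 0.625 in S and 0.185 in G2/M, a 3.38-fold difference between S and G2/M. Pole over Pole3 was 0.0914, 0.0872 and 0.0673, and between S and G1 its interval, -0.19 to 0.05, included 0. The 12 pairs within complexes share genes, and no share over pairs of other genes was computed. These ratios were not corrected for exon length, which moved with the ratios of S over G1. Relative to genes of like length, Pole was at -0.09, Pole2 at -0.57 and Pole3 at 0.51 in S over G1. The near-level ratio of Pole to Pole3 between G1 and S thus does not hold on that scale. The change of Pole to Pole2 between G1 and S is smaller on it. Pola1 was at 0.11 and Pola2 at -0.78 on that scale, closer together than the uncorrected 0.26 and -0.89. Pold2 at 0.96 and Pold3 at -1.03 lay farther apart than the uncorrected 0.75 and -1.07.

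**Figure D5:**
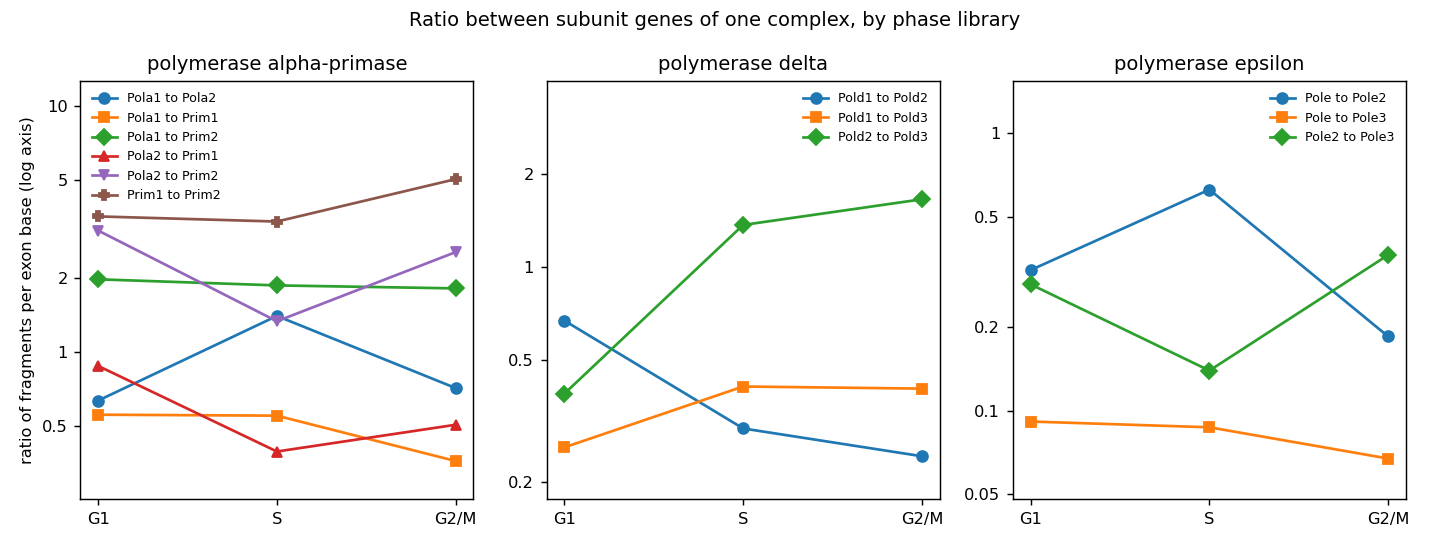
Ratio of fragments per exon base between 2 subunit genes of a complex (vertical log axis) in G1, S and G2/M, 1 panel per complex. Pola1 to Prim2 is nearly level at 1.81 to 1.97, whereas Pold2 to Pold3 climbs from 0.388 to 1.66 and Pole to Pole2 peaks in S at 0.625.

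To compare profiles across phases, each gene's log2 CPM was centred on its mean over the 3 phases, and the Euclidean distance between profiles was taken. The closest pair of the 10 was Pola1 with Pole, at 0.0763, followed by Pola1 with Prim2 at 0.0885, Prim2 with Pole at 0.165 and Pola2 with Pold3 at 0.174. The farthest pair was Pold2 with Pold3, at 1.61. These distances rest on 3 libraries and describe them only.

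Among other genes whose mean reached 50 CPM, those close to the median profile of the 10 included Nes, Cfl2, Rad23b and Brcc3, but 156 of 4230 genes lay within 0.1 of it, so the shape is common. Fewer genes lay near Pold2, 8 of 4233 within 0.1, led by Cdc23, a subunit of the anaphase-promoting complex, Kif2c, a mitotic kinesin, and Arfgef1. Cdc23 was at 39.8, 67.3 and 95.7 CPM in G1, S and G2/M. For Pole2 the 8 genes within 0.1 were led by P4ha1, Atp5o and Cwc15, and for Pold3 the 10 were led by Ypel5, Taf10 and Akt2. The means of Pold2, Pole2 and Pold3 were 19.8, 20.9 and 44.9 CPM, below the 50 CPM of the genes searched. So was that of Pold1, at 17.6 CPM, which had 151 genes within 0.1. The genes closest to Pola2 were Fbxw8, Cox7b and Slbp, the last of which encodes the histone stem-loop binding protein. The genes closest to Pola1 were Rraga, Cd81 and Fam76b, and those closest to Pole were Cactin, Ubfd1 and Pcyox1l. Prim1 lay closest to Hs2st1, Adcy7 and Hspa12a, Prim2 to Otub1, Gle1 and Dctn6, Pold1 to Trappc3, Dgcr2 and Ezr, and Pole3 to Arih2, Kdm5a and Ank.

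Other replication genes are given as the setting of these values. All 6 MCM2-7 helicase genes had less message in S than in G1 (median log2 ratio -0.77), where 49.7% of all genes were higher in S. In G2/M, 5 of the 6 were at least 2-fold lower than in G1 (9.83% of all genes). Mcm3 had the lowest ratios to G1, at 371.0 CPM in G1, against 140.4 in S and 122.4 in G2/M. Mcm4 followed at 491.6, 277.9 and 197.7 CPM in the same order, and Mcm7 was at 247.2, 140.9 and 165.7 CPM. Mcm7 shares 12.6% of its exon bases with other genes. Mcm2 was at 216.1, 171.4 and 99.9 CPM, and Mcm5 at 270.1, 182.8 and 130.8 CPM. Of the 10 polymerase genes, 4 were lower in S than in G1 and none was 2-fold lower in G2/M than in G1. The difference between the lists was not tested.

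Of the 34 fork partners, such as the clamp, its loaders, RPA and the enzymes that mature Okazaki fragments, 33 reached 10 CPM in S or G1. Of these 7 were higher in S (49.7% of all genes) and 26 lower, with 1 at least 2-fold higher (8.65%) and 8 at least 2-fold lower (8.55%), and the median log2 ratio was -0.53. In G2/M over S 16 were higher (50.2%) and 17 lower with a median of -0.04, and in G2/M over G1 7 of 32 were higher (49.6%) and 25 lower with a median of -0.59. The median over all genes lay between -0.01 and 0.00 in each comparison. The lowest ratios of S over G1 were those of Stn1, a subunit of the CST complex that guides polymerase alpha to telomeres, at 22.5 against 1.79 CPM in G1 and S, and of the clamp-loader gene Rfc3, at 41.6 against 9.22 CPM. The highest were those of Ten1, another CST subunit, at 5.30 and 16.6 CPM, and Rfc4, at 12.7 and 23.5 CPM, which shares 12.6% of its exon bases with Eif4a2 on the other strand. From S to G2/M, Cdc45, a part of the CMG helicase, went from 17.9 to 46.0 CPM. It shares 9.28% of its exon bases with Ufd1 on the opposite strand. Over the same step Dscc1, of an alternative clamp loader, went from 26.8 to 9.47 CPM and the GINS gene Gins3 from 27.1 to 10.4 CPM. Rnaseh2b, a subunit of the enzyme that removes RNA from DNA, was at 10.5 CPM in G1 and 18.8 CPM in G2/M.

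Of the 14 other DNA polymerase genes, which mostly serve repair, damage bypass or mitochondria, 10 reached 10 CPM in S or G1, and 6 of these were higher (49.7% of all genes) and 4 lower in S, with a median log2 ratio of 0.06. Polq, the polymerase of theta-mediated end joining, was at 23.6, 50.8 and 48.6 CPM in G1, S and G2/M, and the bypass polymerase Polh at 29.2, 49.1 and 57.2 CPM. The mitochondrial polymerase Polg was at 92.2, 83.8 and 69.2 CPM, the base-excision repair polymerase Polb at 28.2, 35.6 and 28.3 CPM, and the bypass polymerase Polk at 39.0, 40.7 and 29.2 CPM. Rev1, the scaffold of damage bypass, was at 22.5, 11.8 and 46.8 CPM, with 26.6% of its exon bases shared with Eif5b on the opposite strand.

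Markers of the phases differed more between the libraries than the polymerase genes did in sum. Summed, the 10 polymerase genes were at 511.1 CPM in G1, against 516.5 in S and 431.8 in G2/M. In that sum, genes that differed in opposite directions offset each other. The 6 genes known to rise toward S phase (Ccne1, Ccne2, Cdc6, Cdt1, E2f1, Slbp) summed to 610.3 CPM in G1, against 183.9 in S and 236.2 in G2/M, and all 6 were lower in S than in G1. The 10 genes of G2 and mitosis summed to 899.0, 2727 and 3907 CPM, with 9 of 10 higher in S than in G1. Of all genes, 49.7% were higher in S than in G1. The part of the make-up of the sorted cells in the polymerase values was not tested.

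Exon length also moved with the ratios of S over G1. The 500 genes nearest in exon length had a median log2 ratio of 0.29 for Pole, the longest of the 10 at 11160 exon bases, and of 0.15 for Pola1, but -0.20 for Pole2, -0.21 for Pold2 and -0.25 for Pole3. Relative to genes of like length, Pole was at -0.09 in S over G1 rather than 0.20, and Pole3 at 0.51 rather than 0.26. The median over the 10 genes became 0.01 in place of 0.23. The other 9 genes kept their sign in that comparison, and the part of length in these values was not tested further.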

How the data were processed

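Gene counts were the deposited values: whole fragments per gene, counted by the authors with featureCounts 1.5.0-p3, per the file headers, with no normalization. HISAT2 2.1.0 and GRCm38 are named in the submitters' processing notes, which give no order of steps. The recorded command counts pairs over exons by gene and sets no strand option and none that gives a fragment to several genes, so exon bases that overlap another gene, antisense ones included, can lower a count. The table holds 6 RNA columns, which were matched to the samples by name. The 24 ChIP samples were not analysed here. Gene symbols were matched for 45143 of 46078 identifiers (98.0%).

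The columns of a phase were compared by chi-square over genes (p = 0.450 in G1, against 0.0109 in S and 3.11e-28 in G2/M) and then summed, giving libraries of 32395232, 35822319 and 35907974 fragments. Nothing in the labels says that the columns came from separate cultures. TMM factors (edgeR 4.0.16; 0.990, 0.999 and 1.01) were computed over 11169 genes with at least 10 fragments in 2 libraries and used for CPM and log2 ratios. Counts under 3 were set to 3 in ratios, and genes counted in a comparison reached 10 CPM in 1 of its 2 phases. Intervals of ratios are exact 95% binomial (Clopper-Pearson) and those of levels exact Poisson. With 1 library a phase no test across genes was made. The code was tested on simulated data.

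Members and gene lists were chosen with earlier results of these data known. All 10 members are named. From each list, the 2 highest and 2 lowest ratios per comparison were named among genes whose mean reached 10 CPM, and other genes by likeness of profile, of which 1 is not reported here; Pold4 and the markers are given as list members. Alternatives were DESeq2 1.42.0 size factors, unscaled libraries, other filters, a fold of 1.5, an added 0.5, each column left out, and, chosen after seeing the data, a correction for exon length.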

Additional observations from a re-analysis of the deposited data

How the results depend on the processing

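The 30 member ratios kept their sign wherever an alternative gave them a value, with 1 exception: after subtraction of the median of the 500 genes of nearest exon length, chosen after seeing the data, Pole in S over G1 was -0.0919. This correction brought the median of S over G1 to 0.00828. DESeq2 size factors moved no ratio by more than 0.00647. With library size alone as the scale, 1 gene, Pole2, passed 2-fold in G2/M over S. Leaving out the replicate columns numbered 1 or 2 gave 0 to 1 such genes, and without replicate 2 the median of G2/M over S changed sign. With a mean of at least 50 CPM only Pola1, Prim1 and Pole3 were left: no gene was 2-fold lower in S over G1 (0) or higher in G2/M over G1 (0), and the medians were -0.40 for G2/M over S and -0.13 for G2/M over G1, from fewer genes. At 1.5-fold, 1 gene was higher and 3 lower in S over G1, 1 and 3 in G2/M over S, and 2 lower in G2/M over G1. Without length, the highest level exceeded the lowest by 8.13-fold in G1, 8.63-fold in S and 5.10-fold in G2/M. Pole3 in G2/M over G1 ranged from -0.23 to -0.03 over the columns left out. No paired analysis was possible because the columns that the titles number as replicates differed by about counting noise, were counted as 1 library a phase, and no result comes from a test. The lowest member count was 379 fragments, for Pold2 in G1, where relative counting error was largest. Error beyond counting could not be measured with 1 library a phase.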
